A study of Mus musculus with 6 samples.

Results

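The H3K27me3 peaks described here are those that were strong, narrow and called in DHT treated mouse granulosa cells (GCs) at places where the control list had no peak. They were taken from the pooled DHT peak list as peaks on chromosomes 1 to 19 with a −log10 q-value of at least 3 (a q-value of 0.001 or less), a width of at most 1000 bp and no shared base with any control peak. There were 731 such peaks among 3787 DHT peaks on these chromosomes (19.3%), and among 3975 DHT peaks and 20320 peaks of both lists in all. The peaks were thus chosen by their measured −log10 q-value, width and missing control overlap, and all values of the peak lists are given as a description without a test.

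H3K27me3, trimethylation of lysine 27 on histone H3, is written by EZH2, the catalytic subunit of Polycomb repressive complex 2 (PRC2), and removed by the demethylases JMJD3 (KDM6B) and UTX (KDM6A). Silent developmental genes often carry the mark as broad domains rather than as short sites. GCs surround the oocyte, make steroids and respond to androgens through the androgen receptor.

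Primary GCs were cultured from wild type C57BL/6J mice aged 8 to 9 weeks, and cells of many mice were pooled and divided over 6 dishes. The control group had 3 samples that received no agent and the DHT group had 3 samples that received dihydrotestosterone, an androgen that aromatase does not convert to estrogen, at 25 nM for 24 h. Chromatin immunoprecipitation with an H3K27me3 antibody was followed by sequencing (ChIP-seq) in both groups. The data are 1 peak list per group, so no value per sample exists for any peak below and a replicate error cannot be attached to any difference. Total reads per sample are unknown from these lists, and no expression values were at hand to check the cell type against its markers.

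The first question was how many strong DHT peaks were new against the control list. Of 3787 DHT peaks 978 reached a −log10 q-value of 3, and 948 of these were at most 1000 bp wide. Of the 948 strong narrow peaks 217 overlapped a control peak, which left the 731 peaks, or 77.1%. Over all DHT peaks on chromosomes 1 to 19, whatever their strength and width, 83.1% had no control peak. Both shares rest on the overlap that chose the peaks, so their difference was not read further. Of the 30 strong DHT peaks over 1000 bp, 2 had no control peak.

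The absence of a control peak became less frequent as DHT peaks became stronger. Among narrow DHT peaks with a −log10 q-value under 2, 88.4% had no control peak, and from 2 to 3 the share was 84.1%. Within the strong peaks it was 81.9% of 648 peaks from 3 to 4, 78.6% of 182 peaks from 4 to 5, and 72.7% of 55 peaks from 5 to 6. From 6 to 8 it was 56.0% of 25 peaks and from 8 to 12 it was 37.5% of 8 peaks. At 12 or more, 0 of 30 narrow DHT peaks lacked a control peak. The strongest peaks of the DHT list were therefore not among those called after DHT alone. Of the 20 DHT peaks on chromosomes 1 to 19 with the lowest q-values, 0 were strong narrow DHT-only peaks. The top 50 held 2 such peaks, the top 100 held 30 and the top 500 held 340.

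**Figure D1:**
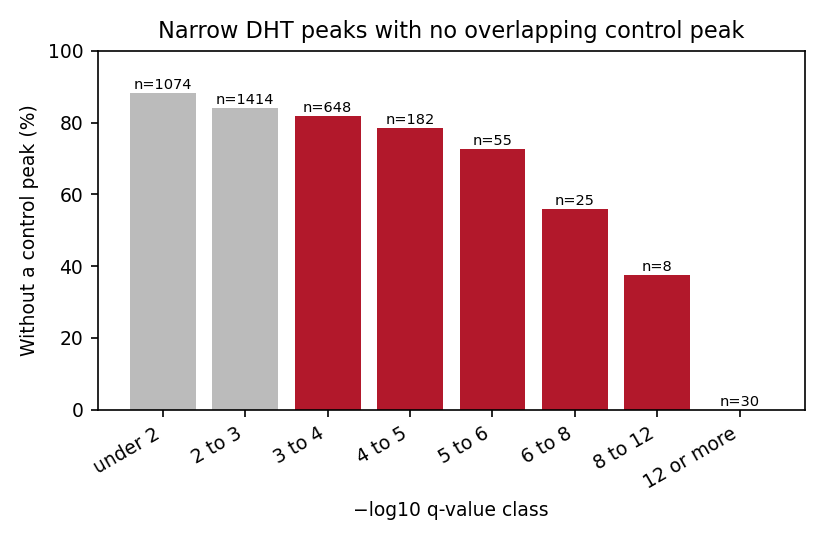
Share of narrow DHT peaks (at most 1000 bp, chromosomes 1 to 19) with no overlapping control peak, in percent, by class of −log10 q-value, with the number of peaks above each bar. Grey bars are classes under 3 and red bars the strong classes, where the share goes from 81.9% to 0.

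Most of the 731 peaks lay close to the limit that chose them. Their median −log10 q-value was 3.56 (quartiles 3.25 and 4.07), and the highest was 10.3. A −log10 q-value of 4 or more was reached by 200 of them. The fold enrichment is the caller's mean over a peak of the signal relative to the local background of the DHT pool. It had a median of 5.05 (quartiles 4.87 and 5.34) and a range of 4.28 to 7.77. A fold enrichment of 6 or more was found in 37 peaks (5.06%), 7 or more in 2 peaks, and 8 or more in 0 peaks.

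The 217 strong narrow DHT peaks that overlapped a control peak covered a wider range. Their median fold enrichment was 5.18 (quartiles 4.87 and 5.73), and their range of 1.49 to 14.4 extended past the DHT-only peaks on both sides. Of these 217 peaks 24 had a fold enrichment of 8 or more. The median −log10 q-value was 3.84 and the highest was 305.2. In the middle of their ranges the sets were alike in fold enrichment, while the upper tail held peaks with a control counterpart.

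**Figure D2:**
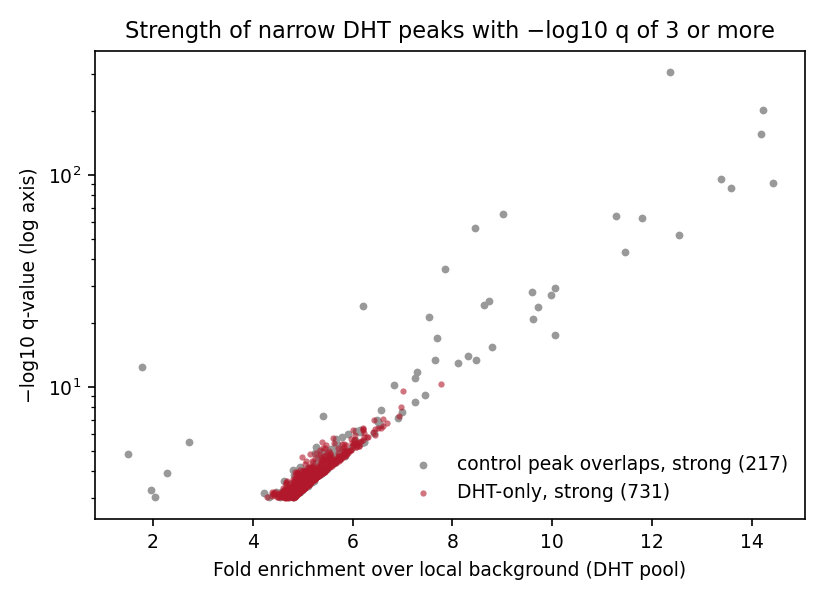
Fold enrichment (horizontal axis) and −log10 q-value (vertical axis, logarithmic) of each strong narrow DHT peak, with DHT-only peaks in red and peaks that overlap a control peak in grey. The red points end at a fold enrichment of 7.77 and a −log10 q-value of 10.3, while grey points reach 14.4 and 305.2.

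The strongest of the DHT-only peaks lay, in mm9 coordinates counted from 1, on chromosome 9 from 8695714 to 8696078. It was 365 bp wide with a fold enrichment of 7.77 and a −log10 q-value of 10.3. Among DHT peaks on chromosomes 1 to 19, 40 others ranked above it (it was number 41). The nearest control peak was 19.5 kb away and weak, with a fold enrichment of 3.48 and a −log10 q-value of 1.93. The next was on chromosome 10 from 117420854 to 117421236, with a fold enrichment of 7.01 and a −log10 q-value of 9.52. Its nearest control peak was 34.8 kb away and had a fold enrichment of 3.78. The third, on chromosome 1 from 193885180 to 193885545, had a fold enrichment of 6.97 and a −log10 q-value of 8.04, and was 241.0 kb from the control list. These 3 were the DHT-only peaks with a −log10 q-value over 8.

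A further group of 7 peaks completed the 10 with the lowest q-values. On chromosome 4, the peak from 152338005 to 152338385 had a fold enrichment of 6.92 and was 56.6 kb from a control peak of 4.35-fold (−log10 q-value of 3.11). On chromosome 15, the peak from 78072407 to 78072848 had a fold enrichment of 6.61, and no control peak lay within 496.4 kb. Another DHT-only peak of the set was only 28844 bp away from it. A second peak on chromosome 9, from 64266826 to 64267277, had a fold enrichment of 6.43. It was 160.7 kb from a control peak of 5.01-fold (−log10 q-value of 4.71) and 3562 bp from another DHT peak, the shortest distance to a DHT peak in the whole set.

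On chromosome 12, the peak from 102814284 to 102814730 had a fold enrichment of 6.68 and was 87.6 kb from the control list. The peak on chromosome 5 from 115366068 to 115366406 had a fold enrichment of 6.61. The control peak nearest to it, 5899 bp away, had a fold enrichment of 6.15 and a −log10 q-value of 7.01. That control peak was itself overlapped by a DHT peak, and the nearest other DHT peak lay 5859 bp from the DHT-only peak. The last of the 10, on chromosome 17 from 30827458 to 30827763 and on chromosome 8 from 121750670 to 121751006, had fold enrichments of 6.50 and 6.21. Their nearest control peaks, at 12.9 kb and 44.9 kb, had fold enrichments of 3.65 and 3.67. Each of the 10 peaks was between 306 and 452 bp wide, so none was at the shortest width of the list.

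At the limit on strength, the DHT-only peaks just inside had −log10 q-values of 3.0012, 3.0015 and 3.0018 with fold enrichments of 4.81, 4.67 and 4.64. The narrow DHT-only peaks just outside had 2.9996, 2.9993 and 2.9988 with fold enrichments of 4.75, 4.80 and 4.69. The fold enrichments on either side of the limit overlapped. No such crowding was found at the limit on width. The widest DHT-only peaks were 929, 877 and 674 bp, and the strong DHT-only peaks left out as too wide were 1049 and 1160 bp. The strong narrow peaks just excluded by overlap shared 25, 40 and 52 bp with a control peak.

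Width was examined next. The shortest peak in the DHT list was 275 bp, and 294 of the 731 peaks (40.2%) had exactly this width. The median was 287 bp (quartiles 275 and 333.5 bp), and 23 peaks (3.15%) were over 500 bp. All 731 peaks together covered 232.0 kb. Strong narrow peaks with a control counterpart were wider, with a median of 373 bp (quartiles 293 and 536 bp), of which 35 (16.1%) had the shortest width and 71 (32.7%) exceeded 500 bp. Among 2138 weak narrow DHT-only peaks (−log10 q-value under 3) the median width was 297 bp, 46.2% had the shortest width and 23.4% exceeded 500 bp. Strong narrow control-only peaks (same limits in the control list, no DHT peak) were close to the strong DHT-only peaks in the share over 500 bp, 59 of 1148 (5.14%). A smaller share of them, 21.2%, had the shortest width of their own list, which was 261 bp. The limit on width applied to each set, and width and overlap both entered the choice of peaks, so the differences were not tested.

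Width and strength were only loosely related within the 731 peaks. The 294 peaks of 275 bp had a median fold enrichment of 4.96 and a highest value of 6.12. The 198 peaks of 300 to 399 bp had a median of 5.10 and included the strongest peak. The 23 peaks of 500 bp or more had a median of 5.02. Spearman's rho across peaks was 0.152 between width and fold enrichment and 0.288 between width and −log10 q-value (731 peaks of 1 pool, which share depth and background). The widest DHT-only peak, on chromosome 12 from 104180198 to 104181126 (929 bp), had a fold enrichment of 4.66, below the median of the set.

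**Figure D3:**
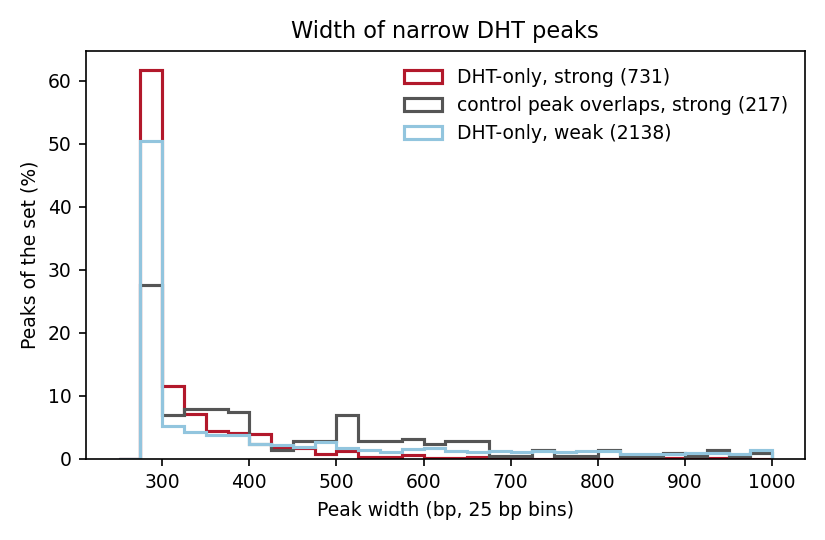
Distribution of peak width in bins of 25 bp, in percent of each set, for strong DHT-only peaks (red), strong DHT peaks that overlap a control peak (dark grey) and weak DHT-only peaks (blue), all at most 1000 bp wide. The red line is concentrated at 275 to 300 bp and holds 3.15% of its peaks over 500 bp, against 32.7% for the dark grey line.

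The pileup is the number of DNA fragments stacked over a position. It was estimated for each peak from fold enrichment and p-value by the Poisson formula of the peak caller. Both values are the caller's means over the peak, while the formula holds at 1 position. The estimates are therefore not counts of fragments. For the 731 peaks the estimated pileup had a median of 10.5 (quartiles 9.94 and 11.5) and a range of 9.34 to 19.4. Of these estimates 9.71% lay within 0.05 of a whole number, near the share that values spread evenly between whole numbers would give. The estimated local background had a median of 1.23. For the strong narrow control-only peaks, in the control pool, the same form gave a median background of 1.91. The difference was not tested. For the strongest peak, on chromosome 9, the estimated pileup was 18.7 over a background of 1.54. With fold enrichment taken as pileup over background, with no count added to either, the median was 16.3, so the estimate depends on the form of the formula. In that form 8.62% of the estimates lay within 0.05 of a whole number, again near the share of evenly spread values. The median backgrounds were then 3.17 for the DHT-only and 3.79 for the control-only peaks. How the 3 replicates were combined or scaled is not known, so all of these estimates are values of pooled lists and cannot be divided among samples.

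The neighbourhood of the peaks in the control list was then measured. The distance to the nearest control peak had a median of 64.0 kb (quartiles 24.0 and 141.3 kb). This value depends on the strength asked of a control peak: with only control peaks of a −log10 q-value of at least 2 counted, for the overlap as well, the median was 147.5 kb, and with at least 3, the limit used for the DHT peaks, it was 571.3 kb. A control peak lay within 1 kb of 8 peaks (1.09%), within 10 kb of 83 (11.4%) and within 100 kb of 477 (65.3%), while 3 peaks had none within 1000 kb. Weak narrow DHT-only peaks were at a median of 49.8 kb (quartiles 20.1 and 106.5 kb) from the control list, with 13.8% within 10 kb and 73.1% within 100 kb. In the 500 kb on either side, strong DHT-only peaks had a median of 6 control peaks and a mean of 6.24, and weak DHT-only peaks a mean of 6.91. Strong peaks with a control counterpart had a mean of 7.24, but this count includes the control peak that overlaps each of them. By the rule DHT-only peaks have no such peak, so the mean of 7.24 is raised by the selection and was not compared further. The median distance of strong DHT-only peaks was longer than that of weak ones, with quartiles that overlap widely. Within the 731 peaks, Spearman's rho between −log10 q-value and this distance was 0.0215, across peaks of 1 pool.

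**Figure D4:**
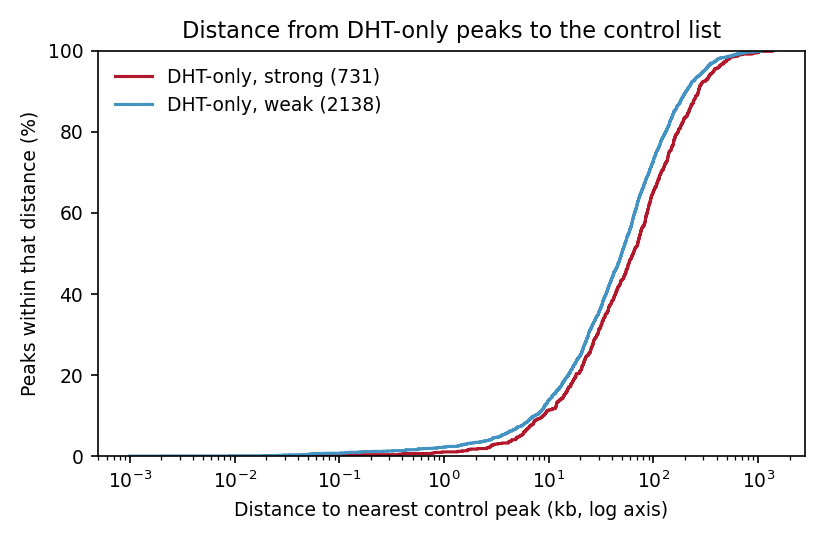
Cumulative share of DHT-only peaks, in percent, within a given distance of the nearest control peak (kb, logarithmic axis), for strong (red) and weak (blue) narrow peaks. The red line lies to the right of the blue line over most of its length, with medians of 64.0 and 49.8 kb.

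The control peaks nearest to the 731 peaks had values close to those of the whole control list. They had a median fold enrichment of 3.50 and a median −log10 q-value of 1.85, where all control peaks on these chromosomes had 3.46 and 1.83. Of the nearest control peaks 84 (11.5%) reached a −log10 q-value of 3, compared with 8.97% of all control peaks.

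A few DHT-only peaks stood beside a control peak without touching it. The closest was on chromosome 18 from 46863706 to 46864080, 19 bp from a control peak of 3.81-fold, with its own fold enrichment of 5.13. The next, on chromosome 9 from 10104227 to 10104501 and on chromosome 7 from 90705694 to 90705968, were 71 and 72 bp from control peaks of 3.15-fold and 3.38-fold. At these places the peaks of both lists were closer together than the width of 1 peak. At the other extreme, the peak on chromosome 9 from 108570754 to 108571028 was 1373 kb from the nearest control peak, and peaks on chromosome 17 from 34671177 to 34671451 and on chromosome 2 from 32702098 to 32702417 were 1025 and 1012 kb away. Their fold enrichments of 5.02, 4.81 and 5.13 were near the median of the set.

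In the control list, 1148 peaks met the mirrored rule (same limits, no DHT peak), or 88.5% of 1297 strong narrow control peaks, where 95.8% of all control peaks had no DHT peak. Their median width was 287 bp, the same as for the DHT-only peaks. Their median fold enrichment was 4.49 and the highest was 6.27, each relative to the background of the control pool and hence not on the scale of the DHT values. Of the 731 DHT-only peaks 7 (0.958%) had such a control-only peak within 10 kb, and 279 had none within 1000 kb. Those 2 within 1 kb were on chromosome 1 from 197068455 to 197068729 and on chromosome 14 from 92741740 to 92742024. On chromosome 1 the DHT peak had a fold enrichment of 4.89 and the control-only peak 376 bp away had 5.43. On chromosome 14 the DHT peak had 5.15 and the control-only peak 409 bp away had 4.42. At both places each list held a strong narrow peak that did not touch that of the other list.

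The peaks were scattered over the genome. On each chromosome the distance from 1 DHT-only peak to the next had a median of 2.15 Mb (quartiles 0.832 and 4.45 Mb). Of 712 such gaps 1 was under 10 kb and 21 were under 100 kb. The closest pair, 7327 bp apart, was on chromosome 1 from 40922501 to 40922895 and from 40930223 to 40930648, with fold enrichments of 5.10 and 4.72. The control list was over 225 kb away from both. The nearest DHT peak of any strength was at a median of 201.1 kb, and it was within 5 kb for 4 of the 731 peaks. Among strong peaks with a control counterpart another DHT peak was within 5 kb for 10 of 217 (4.61%), at a median of 209.4 kb. Among weak narrow DHT-only peaks it was within 5 kb for 13 of 2138 (0.608%), near the 0.547% of the strong DHT-only peaks, at a median of 211.7 kb.

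Of the genome divided into windows of 1 Mb, 623 windows held a DHT-only peak, and 528 of these held 1 peak. There were 84 windows with 2 peaks, 10 with 3 and 1 with 5. The window with 5 was on chromosome 16 from 95000001 to 96000000, and chromosome 16 held 4 of the 11 windows with 3 or more. The 5 peaks in it began at positions 95034075, 95102886, 95363870, 95605532 and 95928929. Their fold enrichments were 6.21, 5.14, 5.05, 5.84 and 5.05, and their −log10 q-values ranged from 3.36 to 6.24. The window held 10 DHT peaks in all and 13 control peaks, so the control list was not empty there. Control peaks were 11.9 to 80.7 kb from the 5 DHT-only peaks. A further window on chromosome 16, from 97000001 to 98000000, held 3 DHT-only peaks of 5.05-fold to 5.83-fold. The windows were looked at after the positions were known, and no test of clustering was made.

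By chromosome, the number of DHT-only peaks ranged from 25 on chromosome 19 to 56 on chromosome 1. Relative to the DHT peaks of the same chromosome they made up between 15.1% on chromosome 4 (35 of 232) and 26.6% on chromosome 19 (25 of 94), with 25.9% on chromosome 17. Of the strong narrow DHT peaks, the share without a control peak ranged from 66.7% on chromosome 9 to 85.5% on chromosome 3. The median fold enrichment of DHT-only peaks stayed between 4.94 and 5.17 on all 19 chromosomes. Outside chromosomes 1 to 19, which the rule left out, 25 DHT peaks otherwise met the rule. Of the chromosomes left out, only chromosome X is included in an alternative in the closing section.

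**Figure D5:**
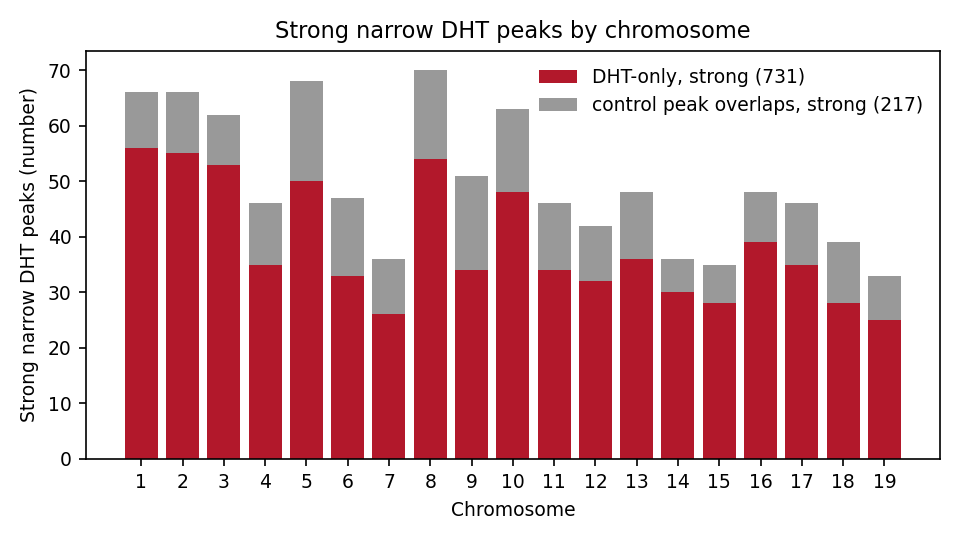
Number of strong narrow DHT peaks on each of chromosomes 1 to 19, with DHT-only peaks in red and peaks that overlap a control peak in grey stacked above them. Every chromosome holds more red than grey, from 25 DHT-only peaks on chromosome 19 to 56 on chromosome 1.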

How the data were processed

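H3K27me3 ChIP-seq of 3 control and 3 DHT samples was used. The authors mapped reads to mm9 with Bowtie2 2.3.4, kept uniquely mapped reads and called broad peaks with MACS2 2.1.1 with a q-value limit of 0.05. The study states that duplicates were removed, while peak names carry the keep_auto setting. How replicates were combined, and whether an input library was used, is not given in the sources used here. The deposited lists give for each peak a position, a score, a fold enrichment (ratio), and p-values and q-values on a −log10 scale, each the caller's mean over the peak. Positions are mm9.

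Overlap needed 1 shared base, and distances are bases between peak edges. The pileup was solved from fold enrichment, taken as (pileup + 1)/(background + 1), and the Poisson p-value. Peaks named in the text are the 10 with the lowest q-value, those highest in fold enrichment, widest, nearest to and farthest from a control peak, those within 10 kb of each other and those at the limits. The peak set, these rules and the comparisons were chosen with earlier results of these data known. The tables of gene symbols have no positions and were not used, and since no mm9 genome or annotation was used here, genes and sequence at the peaks were not analysed. Python 3.11.15, numpy 2.4.6, scipy 1.17.1, pandas 2.3.3 and matplotlib 3.10.9 were used, and the overlap and pileup calculations were tested on simulated data. Depth per sample is unknown.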

Additional observations from a re-analysis of the deposited data

How the results depend on the processing

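No paired analysis was possible because each group has 1 pooled list. For the same reason fits without each replicate were not run. Of 67 alternative values 45 stayed within 1.5 times a count, or within the 95% binomial interval of a share or median, and 22 did not. The intervals treat the peaks of 1 pooled list as independent and served only as a yardstick, not as a replicate error. Merging DHT peaks within 1 kb joined 0 peaks, so its values, all counted among the 45, test nothing. The limit on strength moved most values. At a −log10 q-value of at least 2 there were 1920 DHT-only peaks (81.3% of strong narrow peaks), with a median fold enrichment of 4.53, width of 275 bp, distance to a control peak of 54.6 kb and spacing of 0.790 Mb. At 4 or more there were 200 peaks (66.7%), with medians of 5.57-fold, 302.5 bp and 7.19 Mb of spacing. The share without a control peak was 82.9% for peaks of at most 500 bp and 79.9% if a control peak had to cover at least 50% of the DHT peak. If a control peak within 10 kb also excluded a peak, the share was 68.4%, the distance 76.2 kb and the spacing 2.49 Mb. With only control peaks of a −log10 q-value of at least 2 counted, the share was 82.9% and the distance 147.5 kb, and with at least 3, the share was 90.4%, the distance 571.3 kb and the spacing 1.79 Mb. Each of these alternatives changes which peaks are counted by its construction. With chromosome X there were 755 peaks (76.9%). The estimated pileup was 10.5 or, as pileup over background, 16.3. The unknown depth of the pools, and their different estimated backgrounds, limit what a missing control peak means.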
